A study of Rattus norvegicus with 6 samples.

Results

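Bile acid and drug efflux transporters are the membrane proteins by which the cells lining the gut pass bile acids, drugs, conjugated toxins and plant sterols from one side of the epithelium to the other. The set described here holds 10 genes: Slc51a, Slc51b, Slc10a2, Abcc2, Abcc3, Abcb1a, Abcg2, Abcg5, Abcg8 and Slco2b1. A gene was found on the array where the accession printed for a probe that is not a control matched that gene in the RefSeq annotation of GRCr8. In this way 9 of the 10 genes had a probe, out of 15168 genes named on the array, and each had 1 probe. The deposited table of log2 values held 7 of them. The probes of Slc10a2 and Abcg8 were on the array but not in that table, and Slc51b had no matched probe.

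The study asked how a short piece of Lewis rat chromosome 10, bred onto the Dahl salt-sensitive background, changes colon carcinogenesis. Colon RNA was compared between 3 male rats of the S.LEW(10)x12x2x3x5 congenic strain (C1, C2 and C3) and 3 male Dahl salt-sensitive SS/Jr rats (S1, S2 and S3), with 1 single-color array per rat. Rats of both strains ate a low-salt diet and received azoxymethane (AOM), a carcinogen that targets the rodent colon, by intraperitoneal injection at 15 mg/kg once a week for 2 weeks from the age of 6 weeks, and the colon was taken at 30 weeks. No rat without AOM was arrayed, so the values compare 2 strains after the carcinogen and do not show what AOM did. The congenic group is 1 strain, and the sources used here do not say how much tumor or which stretch of the colon each RNA sample held. Each rat was a separate sample, and with 3 arrays per strain precision is limited by their number. Among the members only Abcc3 lies on chromosome 10, the chromosome of the congenic segment. The study describes that segment as holding only the protein-coding gene Rffl, so Abcc3 is not among its genes.

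Bile acids that reach the gut are taken up across the apical membrane by Slc10a2, mainly in the ileum, and leave the cell at its base through Slc51a and Slc51b, which work as a pair. The ABC transporters spend ATP to pump their cargo: Abcc2, Abcb1a and Abcg2 sit on the apical side and push conjugates and drugs back into the lumen, Abcc3 sits on the basolateral side and pushes conjugates toward the blood, and Abcg5 and Abcg8 form 1 pump that returns plant sterols and cholesterol to the lumen. The bile acid receptor Nr1h4 (FXR) is known to switch on Slc51a and Slc51b.

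The stretch upstream of a start site is shown for the 3 places that the results below turn on: Slc51a, the member that differed most among S rats, Abcg2, whose values followed a like order over the S rats, and the stretch shared by Abcg5 and Abcg8, of which only the first was measured. They are from RefSeq GRCr8, which is not the assembly of the array design. Slc51a, chr11:81803891-81804140 on the plus strand, and Abcg2, chr4:89075224-89075473 on the plus strand, are each the 250 bases that end at the start site. The Abcg8 to Abcg5 stretch, chr6:15717731-15717935 on the plus strand, is the 205 bases between the starts of these genes, which point away from each other. Capitals mark the motifs found.
Slc51a: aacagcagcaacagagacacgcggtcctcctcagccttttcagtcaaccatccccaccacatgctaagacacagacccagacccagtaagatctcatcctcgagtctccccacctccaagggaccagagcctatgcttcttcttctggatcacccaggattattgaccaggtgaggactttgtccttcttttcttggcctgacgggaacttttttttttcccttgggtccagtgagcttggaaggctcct
Abcg2: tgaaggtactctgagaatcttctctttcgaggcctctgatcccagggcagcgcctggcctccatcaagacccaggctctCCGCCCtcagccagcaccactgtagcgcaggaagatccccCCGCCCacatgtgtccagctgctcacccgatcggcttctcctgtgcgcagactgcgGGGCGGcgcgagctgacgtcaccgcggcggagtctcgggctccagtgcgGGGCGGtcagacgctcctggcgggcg
Abcg8 to Abcg5: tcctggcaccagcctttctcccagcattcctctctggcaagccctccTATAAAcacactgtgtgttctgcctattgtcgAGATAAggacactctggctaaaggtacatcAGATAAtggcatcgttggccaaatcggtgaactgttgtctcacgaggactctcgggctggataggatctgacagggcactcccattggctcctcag

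Short motifs were searched on both strands. The letters AGGTCA are the site that a single nuclear receptor reads, and they were also looked for as an inverted repeat spaced by 1 base, AGGTCANTGACCT, and as a direct repeat spaced by 1 base, AGGTCANAGGTCA, both of which contain the single site. The core promoter element TATAAA was a further motif. The site of Sp-family factors, searched as GGGCGG, and the site of zinc finger factors of the gut epithelium, searched as AGATAA, completed the search, and neither overlaps another motif. In the Slc51a stretch none was found, and 52% of its bases were G or C. The Abcg2 stretch was 67.2% G or C and held 4 copies of GGGCGG, some of them on the other strand. The Abcg8 to Abcg5 stretch held 1 TATAAA, 53 bases before the Abcg8 start and 158 before the Abcg5 start, and 2 AGATAA. Each of them reads on the strand of Abcg5, so toward the Abcg8 start the TATAAA lies in reverse. Among 33469 rat promoters of 300 bases (250 before the start and 50 after it), 33.1% held GGGCGG, 14.2% TATAAA, 11.6% AGATAA and 16.2% AGGTCA, while the inverted repeat was in 0.0269% and the direct repeat in 0.0538%. Of the 9 members in the promoter table, AGGTCA was found in Slc51b (1 copy) and Abcc2 (2 copies), and neither repeat was found in any. These matches describe letters in a window and say nothing about binding.

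One S rat touches every value below. S2 stood apart from the other S rats: over 23997 probes it correlated at 0.900 with S1 and 0.937 with S3, but at 0.967 to 0.976 with the 3 congenic rats, while S1 and S3 correlated at 0.980. The SD was larger among S rats than among congenic rats at 70.8% of these probes. Median spot intensity ran from 213.8 in C2 to 594 in S1, and 73.8% to 87.6% of spots were well above background, the scanner software's own test of a spot against its surroundings. C1 shared a scan with the 3 S rats and C2 and C3 were in another scan, so that a comparison within 1 scan is C1 against the S rats. For these reasons each member is given by rat.

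Taken as a set, the members showed no common direction. Of 7 tested, 5 had a higher mean in the congenic strain and 2 a lower one, on a log2 scale on which 1 unit is a 2-fold change. A gene was called where limma gave an unadjusted p under 0.05 with a change of at least 2-fold. Abcc3 and Abcg2 were called higher and Abcg5 lower, where 3.23% of all probes were called higher and 2.34% lower. An unadjusted p under 0.05 alone was reached by 4 members (these 3 and Abcc2), against 13.0% of all probes. With Benjamini-Hochberg adjustment 0 of 23997 probes (0%) passed 0.05, and the adjusted p of the members in limma ran from 0.348 to 0.977. The values of the strains did not overlap for 3 members, Abcc2, Abcc3 and Abcg2, and for 17.7% of all probes. For Abcc2 these counts rest on values at background in 4 rats. Abcg5 was well above background in the 3 S rats and in 0 congenic rats. It thus met the detection filter of the table only through the strain in which it was high, and its call is no independent support. The median log2 difference of the 7 was 0.32, against 0.03 over 12418 genes, each by its brightest probe.

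**Figure D1:**
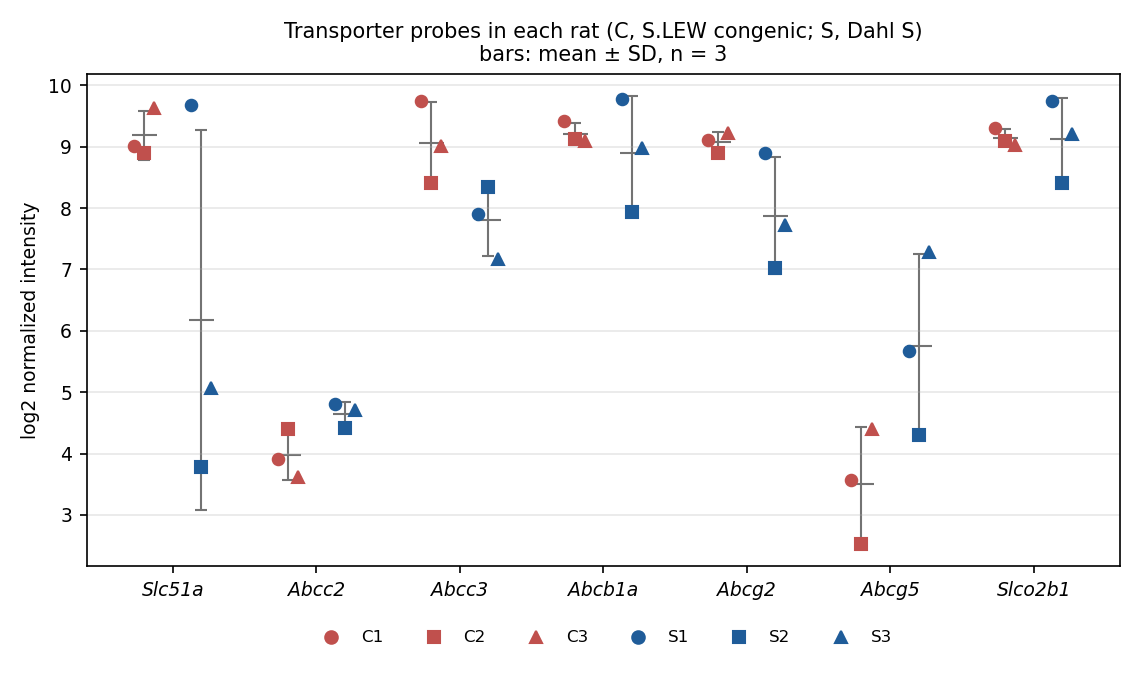
Log2 level of each member in each rat (vertical axis, log2 intensity units), with 1 symbol per rat, congenic rats in red, S rats in blue and bars for the mean ± SD of each strain (n = 3). Slc51a has S1 at 9.67, among the congenic rats, and S2 and S3 at 3.78 and 5.06, far below them, while for Abcg5 S1 and S3 lie above every congenic rat.

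Slc51a, the alpha subunit of the basolateral bile acid exporter, was high in all congenic rats and in 1 S rat. Its log2 level was 9.01, 8.90 and 9.63 in C1, C2 and C3, and 9.67, 3.78 and 5.06 in S1, S2 and S3. S1 was the highest of all 6 rats, S2 and S3 were lower than any congenic rat, and the strains overlapped. Before normalization the probe read 1572 intensity units in S1 but 12.5 in S2, where it was not well above background, and 47.6 in S3. In bulk tissue, fewer cells that express a gene and less RNA of it per cell cannot be told apart. The mean was 9.18 ± 0.39 in congenic and 6.17 ± 3.10 in S rats (SD, n = 3 each), a difference of 3.01 (SE 1.43, limma adjusted p = 0.410). The two-sided exact permutation test gave p = 0.4, and the smallest p that 3 rats against 3 can give is 0.10.

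The size of that difference depended on single rats and on the processing. Without S1 it was 4.76, with a limma adjusted p of 0.0438, and 0.171% of all probes then had one under 0.05. Without S2 it was 1.82 and without S3 2.46, neither with an unadjusted p under 0.05. Leaving out congenic rats moved it between 2.79 and 3.15. Normexp background correction gave 1.68. It was run with an offset of 50 intensity units, and such an offset shrinks the log2 differences of dim probes. With array weights, which let limma count some arrays less, it was 4.04 with a limma adjusted p of 0.00367, and 52.0% of all probes had one under 0.05 in that fit, Abcc3, Abcg2 and Abcg5 among them. Within the scan that holds both strains, C1 stood 2.84 above the mean of the S rats. Slc51b, the beta subunit without which Slc51a does not reach the membrane, was not measured here.

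The genes whose levels over the 6 arrays were most like those of Slc51a, of 12411 genes compared outside the set, were Myo19 (a mitochondrial myosin), Tmigd1 (an adhesion protein of the epithelium) and Slc13a1 (a sodium-sulfate cotransporter). Their Pearson correlations with Slc51a were 0.991, 0.987 and 0.981. These are descriptions over 6 arrays that also share their normalization. The swing was not of 1 size: S1 exceeded S2 by 2.67 for Tmigd1 and by 0.69 for Myo19. For Slc51a and Slc13a1 the probe was not well above background in S2, so the drop from S1 (9.67 and 6.75) to S2 is known only as a lower limit.

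Slc10a2, the apical sodium-dependent bile acid transporter, stayed at background in all 6 rats. Its scanner values, normalized here, were 2.29, 2.35 and 2.42 in the congenic and 2.75, 2.29 and 2.52 in the S rats. No difference can be read from a signal at background, and no fold is given.

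Of the 2 members of the ABCC family, Abcc3 was called and Abcc2 lay at background in most rats. Abcc3, the basolateral exporter of bile acid and drug glucuronides, had log2 levels of 9.75, 8.41 and 9.01 in C1, C2 and C3, and 7.91, 8.35 and 7.17 in S1, S2 and S3. Every congenic rat was above every S rat, although C2 and S2 were only 0.07 apart. The means were 9.06 ± 0.67 and 7.81 ± 0.59 (SD, n = 3 each), and the congenic level was 2.38-fold that of S, a log2 difference of 1.25 (SE 0.44, limma adjusted p = 0.348). An exact two-sided permutation test gave p = 0.1, the smallest value possible. Abcc3 differed from most members in that S2 was the highest S rat and S3 the lowest.

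The call of Abcc3 ended without C1 (log2 difference 0.90), without C3 (1.27) and without S3 (0.93), and it held without C2 (1.57), S1 (1.30) or S2 (1.52). In the 1 scan with both strains C1 was 1.94 above the mean of the S rats. The probe was well above background on all 6 arrays.

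Abcc2, the apical exporter of glucuronide and glutathione conjugates, lay near background. Its deposited log2 levels were 3.91, 4.40 and 3.61 in the congenic rats and 4.80, 4.41 and 4.71 in the S rats. The fitted difference was -0.67 (SE 0.26, limma adjusted p = 0.369). The probe was printed in 10 spots: all 10 were well above background in S1 and in S3, against 2 in S2, 1 in C1, 1 in C2 and 0 in C3. No congenic array and not S2 passed as a whole, so the levels there are only upper limits, and neither a fold nor an order of the strains is given. In scanner values averaged and normalized here, the level in S2 was lower than the deposited one by 0.71, and the strains overlapped. For the other 6 tested members the deposited and rebuilt values differed by at most 0.06.

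Of the 2 drug pumps of the apical membrane, Abcg2 was called and Abcb1a was not. Abcg2 (BCRP), which exports drugs, urate and dietary carcinogens, had log2 levels of 9.11, 8.90 and 9.21 in C1, C2 and C3, and 8.90, 7.02 and 7.72 in S1, S2 and S3. The congenic rats lay within a narrow band, S2 and S3 were well below it, and S1 reached its lower edge, so that the strains were separated by only 0.003. The means were 9.08 ± 0.16 and 7.88 ± 0.95 (SD, n = 3 each). The congenic level was 2.30-fold that of S, a log2 difference of 1.20 (SE 0.47, limma adjusted p = 0.373), and the exact two-sided permutation p was 0.1.

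The call of Abcg2 held in 6 of the 15 alternatives run for it. It was kept without S1, when the difference was 1.71, and it ended without any 1 of the other 5 rats, with differences of 0.77 (without S2), 1.12 (S3), 1.13 (C3), 1.18 (C1) and 1.29 (C2). C1 was 1.24 above the mean of the S rats of its scan. The probe was well above background on all 6 arrays.

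Abcb1a (P-glycoprotein), which pumps a wide range of hydrophobic drugs, did not pass. Its log2 levels were 9.42, 9.12 and 9.10 in the congenic rats and 9.78, 7.93 and 8.98 in the S rats. S1 was the highest and S2 the lowest of all 6, with S3 just under the congenic rats. The difference was 0.32 (SE 0.46, limma adjusted p = 0.744, exact two-sided permutation p = 0.7), and without S2 it turned to -0.17. Abcb1a shares much of its sequence with Abcb1b on the same chromosome, and how far each probe also reads the other gene is uncertain. The 2 probes of Abcb1b were tested and neither was called: one read 9.68, 9.65 and 9.61 against 10.50, 8.66 and 10.14, and the other 6.70, 6.48 and 6.56 against 8.88, 6.02 and 8.77, congenic rats first. Both had S1 highest and S2 lowest, as Abcb1a did.

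The genes most like Abcb1a over the 6 arrays, out of the 12411 compared, were Smarcal1 (a DNA fork-remodelling enzyme, Pearson correlation 0.997) and Eefsec (an elongation factor for selenocysteine, 0.990). Their swings were smaller. S1 exceeded S2 by 1.85 for Abcb1a, but by 0.62 for Smarcal1 and 0.55 for Eefsec.

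Slco2b1, an organic anion transporter that takes drugs and steroid conjugates up into the cell, differed least between the strains. Its log2 levels were 9.30, 9.10 and 9.03 in the congenic rats and 9.75, 8.41 and 9.20 in the S rats. The congenic values lay inside the range of the S values. The difference was 0.02 (SE 0.35, limma adjusted p = 0.977, exact two-sided permutation p = 1), and it was -0.33 without S2 and 0.34 without S1.

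The sterol pump was seen through 1 of its 2 proteins. Abcg5 had log2 levels of 3.57, 2.53 and 4.39 in C1, C2 and C3, and 5.68, 4.31 and 7.29 in S1, S2 and S3. S1 and S3 were above all congenic rats and S2 was among them, so the strains overlapped. The means were 3.50 ± 0.93 and 5.76 ± 1.49 (SD, n = 3 each), a difference of -2.26 (SE 0.82, limma adjusted p = 0.354, exact two-sided permutation p = 0.2). The probe was well above background in all 3 S rats and in none of the congenic rats, where the measured level is therefore only an upper limit. Set against the lowest signal of any probe that was well above background on the same arrays, where that was higher than its own, Abcg5 in congenic rats was lower by at least 1.64-fold.

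That bound rested on S3. Without S3 no fold could be given, and without each other rat the bound lay between 1.36 (without C1) and 2.71 (without S2). The call of Abcg5 ended without S1, S3, C1 or C2, with differences of -2.30, -1.49, -2.30 and -1.77. It also ended with normexp, which gave -0.72, while array weights gave -3.86. Without S2 the difference was -2.98 with a limma adjusted p of 0.0369, and 23.1% of all probes had one under 0.05 once S2 was left out. C1 was 2.18 below the mean of the S rats of its scan in log2 units, a value of -2.18 for congenic minus S.

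Abcg8, the partner of Abcg5 in that pump, stayed at background in all 6 rats. Its scanner values, normalized here, were 2.27, 2.51 and 2.30 in the congenic and 2.25, 2.26 and 2.18 in the S rats. In S3, where Abcg5 read 211 intensity units before normalization, Abcg8 read 3.5. The starts of these genes face away from each other across the 205 bases shown above. Different probes bind with different strength, so these readings do not compare the RNA of the genes.

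**Figure D2:**
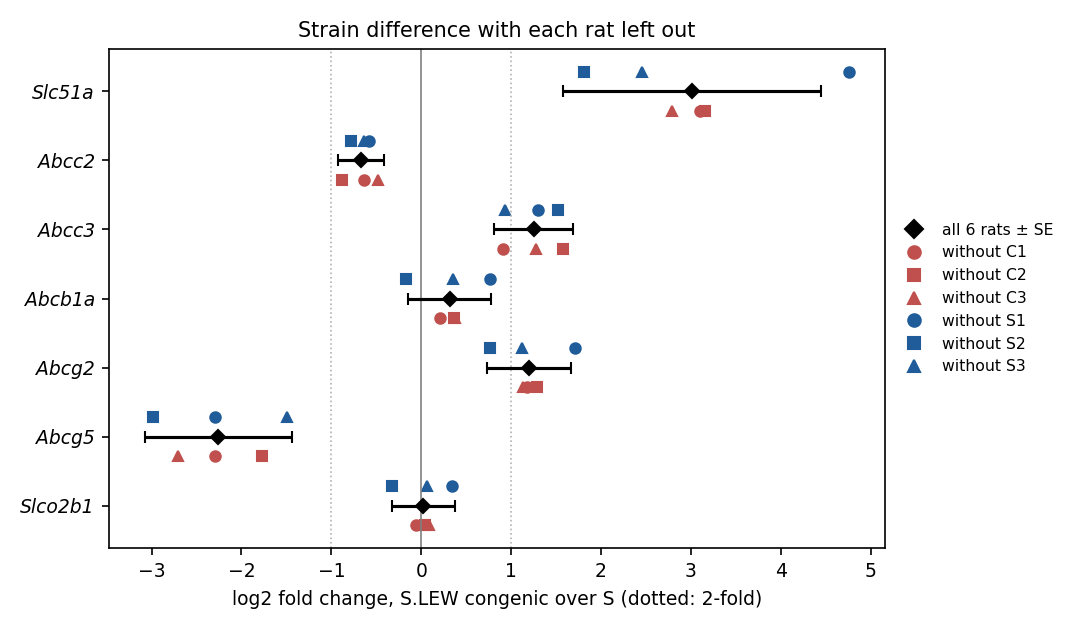
Log2 difference, congenic minus S, of each tested member on the horizontal axis in log2 units, for all 6 rats (black, bars ± SE) and after leaving out each single rat (colored points), with dotted lines at a 2-fold change. Slc51a moves most, from 1.82 without S2 to 4.76 without S1, and the points of Abcb1a and Slco2b1 fall on both sides of 0.

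The S rats were ordered alike for most members. S1 was above S3 and S3 above S2 for 5 of 7 tested members, Slc51a, Abcc2, Abcb1a, Abcg2 and Slco2b1, and for 30.1% of all probes. For Slc51a and Abcc2 the level in S2 was not well above background, and Abcc2 was close in S1 and S3 (4.80 and 4.71). Abcc3 and Abcg5 had other orders. S2 was the lowest S rat for 6 of the 7, but the share of all probes with S2 lowest was not counted. The S values spanned a wider range than the congenic values for 5 of the 7. Over all probes the SD was larger among S rats at 70.8%, so a wider spread in S was not particular to the members. The 4 members that were well above background on all 6 arrays were Abcc3, Abcb1a, Abcg2 and Slco2b1.

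Other genes of bile acid handling and sensing were taken from a list of 25, of which 21 were tested. Nr1h4 and Vdr were called higher, Abcb4 was called lower, and the median difference of the list was 0.17. Over all 12418 genes, each by its brightest probe, 3.79% were called higher and 2.62% lower, and the median was 0.03. Nr1h4, the receptor that senses bile acids, was 11.56, 11.32 and 11.62 in the congenic rats and 10.58, 10.41 and 9.86 in the S rats. All congenic rats lay above all S rats, S1 included, by 1.22 on average (SE 0.24, limma adjusted p = 0.223). Its dimmer probe gave 1.03, and the call of that probe ended without C1, C3 or S3. Whether its level bears on that of Slc51a was not tested.

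Vdr, the vitamin D receptor, which also binds the secondary bile acid lithocholic acid, was 10.57, 10.14 and 10.03 against 8.62, 9.88 and 8.55. Its mean was higher by 1.23 (SE 0.40, limma adjusted p = 0.333), and the S rat nearest to the congenic rats was S2. That call ended without C1, S1 or S3. Abcb4, a phospholipid exporter of bile canaliculi, was 6.08, 5.82 and 6.10 against 7.61, 6.38 and 7.14, a difference of -1.04 (SE 0.33, limma adjusted p = 0.329). It was well above background in 2 of the 3 congenic rats, and its call ended without C2, S1 or S3. Fabp6, the ileal bile acid binding protein, was named after its values were seen: it read 6.77, 7.79 and 7.18 in the congenic rats and 9.91, 6.95 and 11.32 in the S rats, overlapped between strains and was not called.

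Of 42 other drug efflux and uptake transporters, 32 were tested, and the median difference was -0.01. Of the 32, 2 were called higher and 2 lower, beside 3.79% and 2.62% of all 12418 genes, each by its brightest probe. Slc29a1, a nucleoside transporter, was 10.89, 10.41 and 11.29 against 9.83, 9.86 and 9.27, higher by 1.21 (SE 0.30, limma adjusted p = 0.268). No S rat reached the congenic range. The call of Slc29a1 ended without C3, where the change fell just short of 2-fold.

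Slc15a1, the proton-driven peptide transporter of the gut, was 2.55, 3.29 and 2.79 in the congenic rats, none well above background, and 5.75, 5.29 and 7.49 in the S rats, all well above it. In congenic rats it was lower by at least 2.19-fold, and its fitted difference of -3.30 had a limma adjusted p of 0.205. That difference was -2.65 without S3 and -1.11 with normexp. How far the bound rests on S3 was not computed. Like Abcg5, the probe met the detection filter only through the S rats. Slc15a1 was highest in S3, as Abcg5 was. S2, at 5.29, lay below the lowest signal well above background on the array of C2, 5.62, so a full separation of the strains was not shown. Slco5a1, an orphan member of the same family as Slco2b1, was the other gene called lower.

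Among 24 genes of intestinal sterol handling, 20 were tested, 0 were called by the limma rule in either direction, 0 had an unadjusted p under 0.05, and the median difference was -0.10. Npc1l1, which takes cholesterol up from the lumen and was named after its values were seen, read 7.18, 7.29 and 7.28 against 7.98, 4.96 and 6.07. S1 lay above the congenic rats, and S2 and S3 below them.

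**Figure D3:**
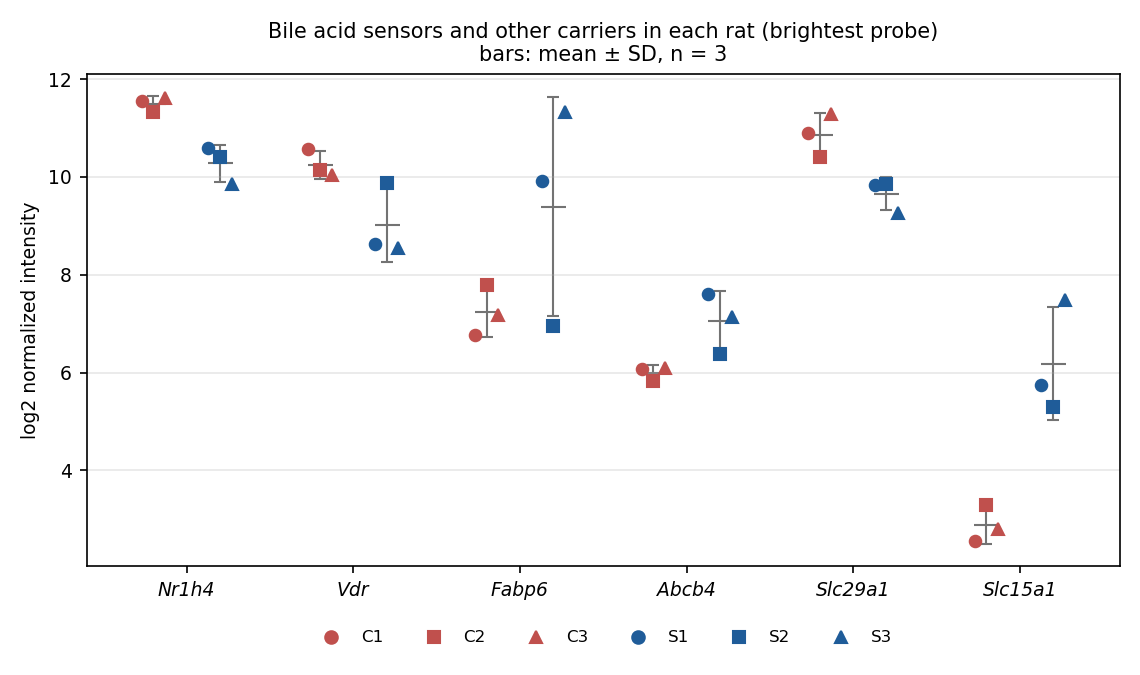
Log2 level in each rat (vertical axis, log2 intensity units) of pathway genes named in the text, each by its brightest probe, with 1 symbol per rat, congenic rats in red, S rats in blue and bars for the mean ± SD of each strain (n = 3). Nr1h4, Vdr and Slc29a1 lie higher in all congenic rats, Abcb4 lies lower, Slc15a1 was not well above background in any congenic rat, and Fabp6 overlaps.

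Markers of the cells that the colon samples could hold also differed between rats. The level of a list is the mean, over its genes, of the log2 level minus the gene's own mean over the 6 arrays. Colonocyte markers had 11 of 12 genes tested, all well above background on all 6 arrays, 3 called higher (Car1, Slc26a3 and Vil1) and a median difference of 0.81. Of the 11, 9 had a higher mean in the congenic strain and 2, Aqp8 and Slc26a2, a lower one. Aqp8 was 7.90, 8.00 and 7.24 in the congenic rats and 8.52, 8.88 and 8.73 in the S rats. Its difference of -0.998 fell just short of the 2-fold change of a call. The list level ran from 0.15 to 0.61 in the congenic rats and from -0.51 to -0.33 in the S rats, with Ms4a12 without a tested probe. As a mean over its genes, the epithelial list was thus higher in every congenic rat, as Abcc3 and Abcg2 were. S1, the rat in which Slc51a was highest, had a list level of -0.34. Their part in the result was not tested.

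Markers of small intestine enterocytes had 11 of 14 genes tested and 1 called, Fabp2, which was higher. Of the 11, 4 had a higher mean in the congenic strain and 7 a lower one, and the median difference was -0.04. The list level ran from -0.16 to 0.08 in the congenic and from -0.20 to 0.19 in the S rats, and Si, Mgam and Apoc3 were not tested. Endothelial markers, which bear on Abcb1a and Abcg2 because vessel walls also hold these pumps, had 8 of 11 genes tested and 0 called by the limma rule or at an unadjusted p under 0.05. Their level ran from -0.39 to -0.01 in the congenic and from 0.06 to 0.25 in the S rats. The part of these lists in the results was not tested.

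Lists of immune and muscle cells moved with single S rats. Lymphoid markers had 5 of 12 genes tested, all 5 called lower, at -2.15 to -1.68 in the congenic rats, 3.70 in S1, -1.59 in S2 and 3.58 in S3. Abcg5 was likewise higher in S1 and S3 than in any congenic rat or in S2. Smooth muscle markers had all 10 genes tested, with 1 called higher. All 10 had a higher mean in the congenic strain, with a median difference of 1.03. The list stood at 0.40 to 0.66 in the congenic rats, -1.63 in S1, 0.75 in S2 and -0.63 in S3. Macrophage markers had 10 of 11 genes tested, 2 called higher and 1 lower. Of the 10, 3 had a higher mean in the congenic strain and 7 a lower one, with a median difference of -0.71. The list stood at -0.55 to 0.04 in the congenic rats, 0.65 in S1, -0.68 in S2 and 0.64 in S3. Proliferation genes had 7 of 10 tested and 0 called by the limma rule or at an unadjusted p under 0.05, at -0.58 to 0.15 in the congenic rats, 0.69 in S1, -0.45 in S2 and 0.35 in S3. Hepatocyte markers had 4 of 11 genes tested, 1 of them called higher, and Alb, Ttr and 5 other defining genes were not in the table. Their part in the result was not tested.

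**Figure D4:**
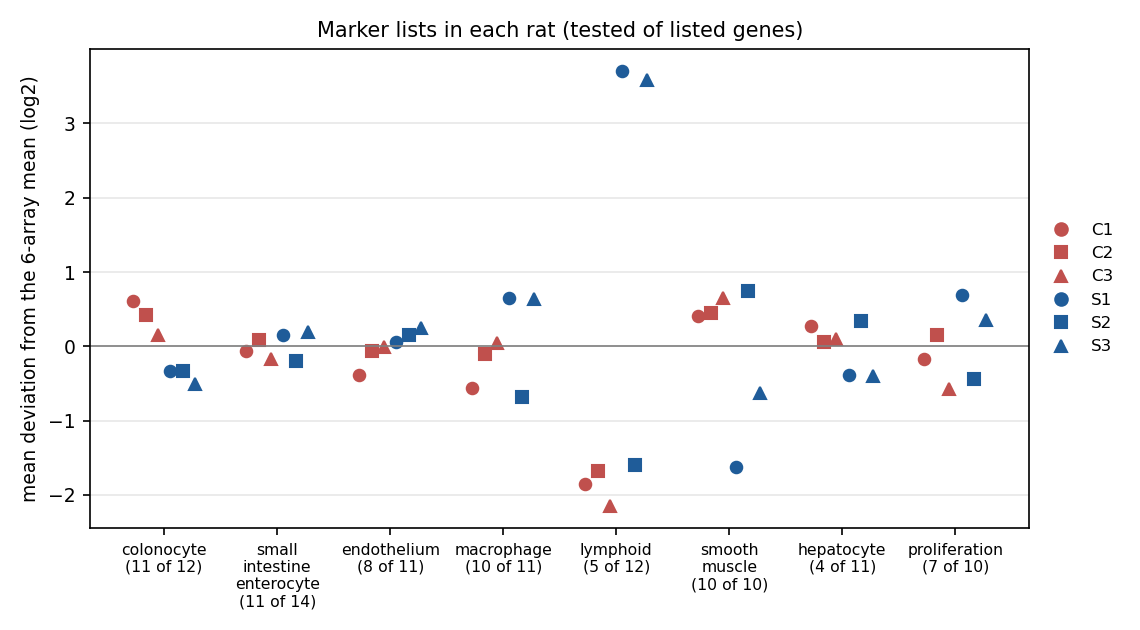
Mean log2 level of each marker list in each rat, relative to each gene's mean over the 6 arrays (axis in log2 units), with the number of genes tested of those listed. The mean of the colonocyte markers is higher in the 3 congenic rats, and that of the lymphoid markers is high in S1 and S3 and low in S2 and the congenic rats.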

How the data were processed

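Colon RNA of 3 S.LEW congenic and 3 S rats was hybridised to 1 single-color Agilent array per rat (42877 spots, 30367 probes). The authors scanned the arrays with Agilent Feature Extraction 11.0.1.1, and the deposited scanner files give a background-corrected intensity per spot. The authors then normalized between arrays by quantiles and kept probes detected in at least 3 samples, and the deposited table holds these log2 values for 23997 probes. An array has no read depth: signal over background sets its limit, and precision is limited by how many arrays there are. No saturated spot was met.

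Strains were compared on the deposited log2 values by lmFit and eBayes of limma 3.58.1 (R 4.3.3) without covariates (Benjamini-Hochberg adjustment over all 23997 probes), and a probe was called where it changed at least 2-fold with an unadjusted p under 0.05, the thresholds of the methods. Genes with several probes were counted by the brightest. A probe was taken as well above background on an array where no fewer of its unflagged spots passed than failed. Where no array of a strain passed, a bound is given: the brighter strain's mean over the dimmer strain's mean of, per array, the higher of the probe's value and the lowest value of any probe well above background. Slc10a2 and Abcg8 were read from scanner intensity normalized by quantiles here. Of 30367 probes, 18005 matched a RefSeq gene by accession. Exact permutation tests are two-sided. The limma step was tested on simulated data. Figures were drawn with matplotlib 3.10.9.

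No sign was seen that replicate numbers pair the rats. Deviations from the strain means correlated at -0.02, -0.13 and -0.06 between rats of the same number. With 3 rats per strain these values cannot exclude a pairing. Rats were caged as 1 of each strain, and the sources used here do not tie numbers to cages. Genes named are all members, up to 3 called genes per pathway list with the largest change, the 3 genes most correlated with Slc51a and with Abcb1a, and marker genes with their list. Some genes that this rule picks are not reported here, though counts include them. The members and lists were chosen with earlier results of these data known. Alternatives were other value sources, normalizations, background corrections, filters, tests and blocks, and each rat left out.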

Additional observations from a re-analysis of the deposited data

How the results depend on the processing

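With all rats, 2 members were called higher and 1 lower, 4 and 3 genes of the pathway lists, and 776 and 562 of all probes. The methods' t-test called 0 members in either direction, with 515 and 178 of all probes at its unadjusted threshold and 0 after Benjamini-Hochberg adjustment. Normexp was run on the median signal with an offset of 50, and added after seeing the data because the files hold no mean signal. It gave 1 and 0 members and 359 and 380 probes. Scaling to the 75th percentile gave 692 and 760 probes. Asking for all 6 arrays above background gave 0 members lower, which follows from Abcg5 not passing, with 1 pathway gene lower and 342 probes lower. No filter gave 1 member higher. Array weights gave 3 members higher and 1 lower, adding Slc51a, with 2090 and 1744 probes and 11 and 10 pathway genes. The scan as a block gave 1 and 0 members, 1 pathway gene lower and 227 probes lower.

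Leaving out each rat in turn gave 0 to 3 members higher and 0 to 1 lower, 2 to 12 and 1 to 10 pathway genes, and 477 (without S3) to 2397 (without S2) probes higher and 192 (without S3) to 1725 (without S2) lower. Abcb1a ran from -0.17 (without S2) to 0.76 (without S1). Slco2b1 ran from -0.33 (without S2) to 0.34 (without S1) and was -0.05 without C1, -0.045 with normexp and -0.060 with array weights. Except where a reason is given, the cause was not tested.

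With the replicate number as a block, 2 members were again called higher and 1 lower, with 5 and 3 pathway genes and 794 and 744 probes. Rats of 1 number are not known to share more than that number, and 0 of 3 congenic rats correlated best with the S rat of their own number. Signal over background limits Abcc2, Abcg5, Slc10a2 and Abcg8.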
